A study of Mus musculus with 18 samples.

Results

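The livers of C3H/HeJ and CBA/J mice were compared for accessible chromatin, by taking the FAIRE-seq peak lists of these 2 strains alone and merging peaks that overlapped or touched on the 19 autosomes into sites. The 2 lists gave 34307 sites, against 51302 sites when the lists of all 9 strains of the study were merged in the same way. Of the 34307 sites, 25187 held a peak of both strains, 4363 held a peak of C3H/HeJ only and 4757 a peak of CBA/J only. FAIRE-seq was run on livers of male mice that had eaten the HF/HS diet, rich in fat and sucrose, for 8 weeks from 8 weeks of age, with 2 mice per strain and no group on another diet. The other strains are DBA/2J, BALB/cJ, A/J, C57BL/6J and AKR/J, which are inbred, and BXH19/TyJ and BXH2/TyJ, which are recombinant inbred. Each strain has 1 deposited list, in which both mice are already combined, so that neither the spread between mice nor a test between strains can be had from these lists, and all differences below are descriptions of 1 list against another. Each 95% interval is an exact Clopper-Pearson interval for counting error alone, and neighbouring sites depend on each other. In bulk liver, fewer cells of a type and less accessible DNA per cell cannot be told apart.

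FAIRE separates DNA that is not wrapped around nucleosomes from formaldehyde-fixed chromatin, so that active promoters and enhancers stand out as peaks of reads. C3H and CBA are sister strains that go back to crosses between Bagg albino and DBA mice, and each kept a different mixture of the segments that entered those crosses, which are also the source of BALB/cJ and DBA/2J. Both carry the k haplotype of the major histocompatibility complex. The BXH strains are mosaics of C57BL/6J and C3H/HeJ and carry no CBA/J chromosome.

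Sequences are given here for 7 sites on which the comparison turns, read from the plus strand of the C57BL/6J reference assembly (NCBIM37, which is mm9) within the site and outside annotated exons. The alleles of C3H/HeJ and CBA/J themselves were not analysed here. Capitals mark the GC box (letters GGGCGG), the CCAAT box, the TATA box (letters TATAAA) and the core of the CTCF motif (letters CACNAGNGG) on either strand, also where 2 matches share a base. The letters of FOXA (TGTTTAC, with TATTTAC also allowed), HNF4A (CAAAGTCCA), C/EBP (TTNNGCAA), ETS (CCGGAAGT) and NRF1 (GCGCATGC) were searched as well and would have been capitalised. In the tandem repeat near Gm10722 the capitals instead mark the same 24 bases at 2 places 233 bp apart. A match is a description of letters and not a bound site. In windows of 300 bp around the middle of the shared sites in the upper part of the lists (percentile 50 or more, n = 16659 without the tandem repeat), the GC box letters were found in 40.6%, the CCAAT box in 32.1%, the TATA box in 4.80% and the CTCF letters in 4.48%.
The first is the strongest C3H/HeJ-only site among those nearest to a protein-coding gene that lies more than 1 kb from a TSS and has no near-identical copy, 4911 bp upstream of Rtp3 (chr9:110897301-110897500).
Rtp3: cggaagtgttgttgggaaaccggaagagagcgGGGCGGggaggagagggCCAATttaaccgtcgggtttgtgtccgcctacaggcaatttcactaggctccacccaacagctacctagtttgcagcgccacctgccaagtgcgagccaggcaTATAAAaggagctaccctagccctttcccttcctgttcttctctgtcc
The strongest CBA/J-only site without a near-identical copy lies at the TSS of Usp12 (chr5:147606583-147606782).
Usp12: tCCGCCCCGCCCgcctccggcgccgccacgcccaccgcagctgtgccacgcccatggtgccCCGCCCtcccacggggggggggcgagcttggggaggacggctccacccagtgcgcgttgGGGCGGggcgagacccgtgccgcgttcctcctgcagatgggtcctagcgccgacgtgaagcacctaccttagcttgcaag
The strongest CBA/J-only site of all, near Gm11167 (chr9:3020425-3020624), is a unit of a tandem repeat, and a wide site of the same repeat that was called in both strains lies at Gm10722 (chr9:3001445-3001744).
Gm11167: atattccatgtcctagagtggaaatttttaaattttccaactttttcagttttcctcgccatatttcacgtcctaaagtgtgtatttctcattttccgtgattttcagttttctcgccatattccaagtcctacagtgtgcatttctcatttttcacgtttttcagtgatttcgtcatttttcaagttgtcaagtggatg
Gm10722: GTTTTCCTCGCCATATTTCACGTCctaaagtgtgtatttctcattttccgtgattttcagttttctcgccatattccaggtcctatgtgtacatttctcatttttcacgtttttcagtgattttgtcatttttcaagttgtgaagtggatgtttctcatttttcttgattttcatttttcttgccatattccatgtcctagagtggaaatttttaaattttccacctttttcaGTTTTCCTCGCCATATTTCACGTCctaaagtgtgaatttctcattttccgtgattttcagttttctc
Further CBA/J-only sites stand for a set that resembles the L1Md_T retrotransposon (the strongest, nearest to the TSS of Gm12010, chr11:15631771-15631970), for the CTCF letters (at the TSS of Otud3, chr4:138469916-138470115), and for the largest family of near-identical one-strain sites (in an intron near Tmem48, chr4:107060963-107061162).
Gm12010: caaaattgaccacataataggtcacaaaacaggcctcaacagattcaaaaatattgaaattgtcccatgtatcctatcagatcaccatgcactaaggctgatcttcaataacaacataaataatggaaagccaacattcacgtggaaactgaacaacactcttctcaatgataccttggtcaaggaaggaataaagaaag
Otud3: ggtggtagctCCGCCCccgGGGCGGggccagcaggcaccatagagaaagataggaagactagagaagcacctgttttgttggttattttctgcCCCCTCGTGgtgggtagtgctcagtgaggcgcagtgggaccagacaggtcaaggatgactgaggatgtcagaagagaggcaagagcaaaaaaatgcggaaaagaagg
Tmem48: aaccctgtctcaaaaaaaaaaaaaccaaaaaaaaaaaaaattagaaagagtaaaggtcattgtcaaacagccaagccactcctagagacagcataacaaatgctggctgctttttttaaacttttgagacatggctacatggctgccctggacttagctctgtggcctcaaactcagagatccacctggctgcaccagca
The Rtp3 stretch holds a GC box, a CCAAT box and a TATA box in this order although the nearest annotated TSS is 4911 bp away. The Usp12 stretch holds 4 GC boxes, of which the first 2 share a base.

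The lists were of like size, with 30370 peaks in C3H/HeJ (29969 on autosomes, median width 512 bp) and 30613 in CBA/J (30244 on autosomes, median width 501 bp). They covered 19.4 Mb and 19.5 Mb. The peak lists hold no read depth. The filtered read counts that the authors state for each library sum to fewer reads in C3H/HeJ than in CBA/J, and the part of this difference in the results was not tested. The signal of the peak caller has its own scale in each list, with a median of 0.523 in C3H/HeJ and 0.277 in CBA/J, so signal is given as a percentile, the share of the strain's own peaks with a signal as high or lower. Among the 10 hepatocyte markers, 8 had a site within 1 kb of a TSS, and all 8 sites were called in both strains with percentiles less than 25 points apart, such as 79.8 and 81.2 at Hnf4a and 72.5 and 68.0 at Apoa1 (C3H/HeJ first). No such site was found for Alb and Cps1. None of 7 markers of Kupffer cells and none of 8 of lymphocytes had a TSS site, 3 of 8 of sinusoidal endothelial cells, 2 of 8 of stellate cells and 2 of 8 of cholangiocytes had one. The peaks at Lrat (C3H/HeJ only, 11.4) and Col1a1 (CBA/J only, 30.7), both stellate or fibroblast genes, were low.

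The peak calls of the strains differed mainly among weak peaks. Shared sites made up 73.4% of all sites (95% interval 72.9 to 73.9%), C3H/HeJ-only sites 12.7% (12.4 to 13.1%) and CBA/J-only sites 13.9% (13.5 to 14.2%). The median percentile was 14.8 at C3H/HeJ-only and 15.0 at CBA/J-only sites, against 57.5 in C3H/HeJ and 58.2 in CBA/J at shared sites. The share of sites called in a single strain was 91.1% where the higher percentile was at most 10, 51.3% between 20 and 30, 11.1% between 40 and 50, and 0.246% above 90. One-strain sites were also narrower, with a median of 367 bp (C3H/HeJ only) and 315 bp (CBA/J only) against 622 bp. A peak of the other strain lay within 500 bp of 570 of the C3H/HeJ-only and 466 of the CBA/J-only sites.

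**Figure D1:**
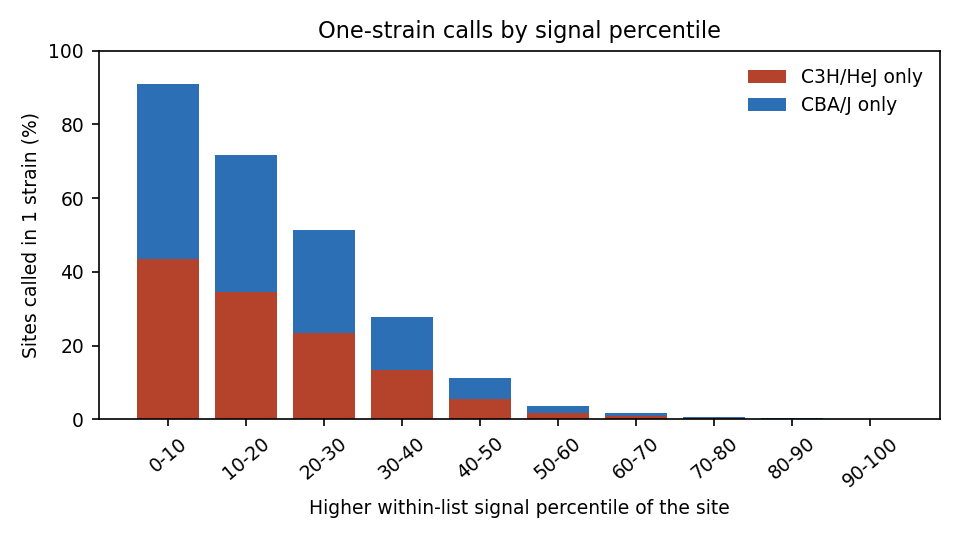
Share of sites called in C3H/HeJ only and in CBA/J only (y axis, percent of sites) by the higher within-list signal percentile of the site (x axis, bins of 10 points). Together the strains fall from 91.1% one-strain sites in the lowest bin to 0.246% in the highest, and in every bin both contribute.

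The pair was the closest of the 21 pairs of inbred strains by all 3 measures taken from the lists, which is a description since the pair was chosen for its closeness. The next pairs by shared sites were BALB/cJ with CBA/J (72.8%), BALB/cJ with C3H/HeJ (72.5%) and AKR/J with CBA/J (70.3%). Of the sites at percentile 75 or more in either strain, 0.302% (26 of 8618) lacked a peak in the other strain, against 0.538% for BALB/cJ with C3H/HeJ, 0.644% for AKR/J with CBA/J and 0.649% for BALB/cJ with CBA/J. The rank correlation of percentiles at shared sites was 0.879 (n = 25187 sites, which share base composition and the reference assembly) and 0.876 for BALB/cJ with CBA/J. With the recombinant strains included, BALB/cJ with BXH19/TyJ shared slightly more sites (73.5%), and BXH19/TyJ with CBA/J had the higher rank correlation (0.891).

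Among the 8618 sites at percentile 75 or more, 8592 were called in both strains, 13 in C3H/HeJ only (0.151%) and 13 in CBA/J only (0.151%). At percentile 50 or more these were 117 (0.693%) and 98 (0.58%) of 16891. The highest C3H/HeJ-only site below 75 stood at 74.5 (Pfkfb4) and the lowest above it at 77.7 (Itsn1), and in CBA/J these were 74.2 (Gm16869) and 76.1 (Gm11019). None of the 26 strong one-strain sites was absent from all 7 other lists, and 21 were called in at least 5 of them, so that the strain without the peak was then in the minority of the 9. Of the 26, 18 overlapped the list of the most variable sites that the authors deposited for the 7 inbred strains. That list was made from the same libraries, with C3H/HeJ and CBA/J among them, so the overlap is no separate support. The share of all sites on that list is not given here, so the count cannot be called high or low. Of the 26, 9 held a TSS and 9 had a near-identical copy at another site, where 877 of all 34307 sites had such a copy.

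The 2 strongest C3H/HeJ-only sites each held a TSS. Gm17683, a lincRNA, had a peak at its TSS at percentile 98.6 in C3H/HeJ (chr9:88494141-88494742) and no peak in CBA/J or DBA/2J, with 91.6 to 97.8 in the other 6 lists. Gm17694, another copy of the same sequence (chr9:88753537-88754256), showed the same pattern, at 95.5 in C3H/HeJ and 81.0 to 97.0 in those 6 lists. Yet another copy, nearest to SNORD50 (chr9:88961330-88961870), was shared and weaker, at 42.8 in C3H/HeJ and 23.6 in CBA/J, and was also called in BALB/cJ (10.4) and BXH19/TyJ (22.8). Reads that fit more than 1 copy were left out by the authors, so values at these copies are uncertain.

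The site upstream of Rtp3, a member of the receptor transporter family and shown above, stood at 88.4 and was called in all 7 other lists at 67.3 to 92.5. CBA/J was the only strain without a peak there, although it had a peak 2140 bp away. A further 9 C3H/HeJ-only sites stood between 77.7 and 89.6. The peak in an intron of Disc1, which encodes a scaffold protein, lay 3080 bp past the nearest TSS, stood at 86.5 and was called in A/J, AKR/J and BALB/cJ and in neither BXH strain nor C57BL/6J. The peak near Gm13814 (85.6) was called in A/J and AKR/J only. Ldlrad3, which encodes a receptor with LDL receptor domains, had a peak inside the gene at 82.7, 421 bp past its nearest TSS. Gpd1l, related to glycerol-3-phosphate dehydrogenase, had one in an intron at 81.8, 5764 bp before its nearest TSS, with 77.3 in BALB/cJ and 6.61 in DBA/2J. Itsn1, an endocytic scaffold, had one in an intron at 77.7, 532 bp before an internal TSS, and Sit1, an adaptor of T cell signalling, one 4521 bp downstream of its TSS, outside annotated genes, at 77.9. The last 3 sites were nearest to genes of non-coding RNAs, AC171202.1 (89.6), n-R5s43 (88.5) and SNORA70 (83.2, with a CBA/J peak 370 bp away).

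CBA/J-only sites were of 2 kinds. The first were 6 copies of the tandem repeat, 5 of them on chromosome 9 between 3015186 and 3038320, near Gm11167, Gm17535, Gm10720, Gm10106 and Gm16869, at 99.5 to 99.9, and 1 on chromosome 2 near Gm10801 at 88.8. All 7 other lists held these 6 peaks. The second were 7 sites outside the repeat, among them the promoters of Usp12, Uhmk1, 0610012H03Rik and Trim62. Usp12, which encodes a deubiquitinating enzyme, stood at 95.3 in CBA/J and 98.7 in BXH2/TyJ, at 54.7 to 76.1 in AKR/J, A/J, BXH19/TyJ and C57BL/6J, at 12.5 in BALB/cJ, and had no peak in C3H/HeJ or DBA/2J. Trim62, an E3 ubiquitin ligase, stood at 77.8 in CBA/J, 94.0 in BXH2/TyJ, 75.5 in A/J, 72.2 in BXH19/TyJ, 16.5 in BALB/cJ and 14.1 in AKR/J, with no peak in C3H/HeJ, C57BL/6J or DBA/2J. Both promoter sites were rich in G and C (72.1% and 71.0%).

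Uhmk1, a kinase with an RNA-binding domain, stood at 83.4 in CBA/J (at a site with a near-identical copy) and at 74.1 to 90.7 in the 6 other lists that called it, and 0610012H03Rik at 83.3 and at 69.8 to 86.4 in all 7. C3H/HeJ was thus the only strain without a peak at 0610012H03Rik, and it had one 3599 bp away. Daglb, a diacylglycerol lipase, had a CBA/J peak in its intron at 83.3 that was also called in C57BL/6J and BXH2/TyJ. Banp, a nuclear matrix and promoter-binding protein, had one at 80.9 that was also called in C57BL/6J, DBA/2J and both BXH strains. The peak near Gm11019 stood at 76.1, at 62.0 in DBA/2J and at 65.5 in AKR/J.

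**Figure D2:**
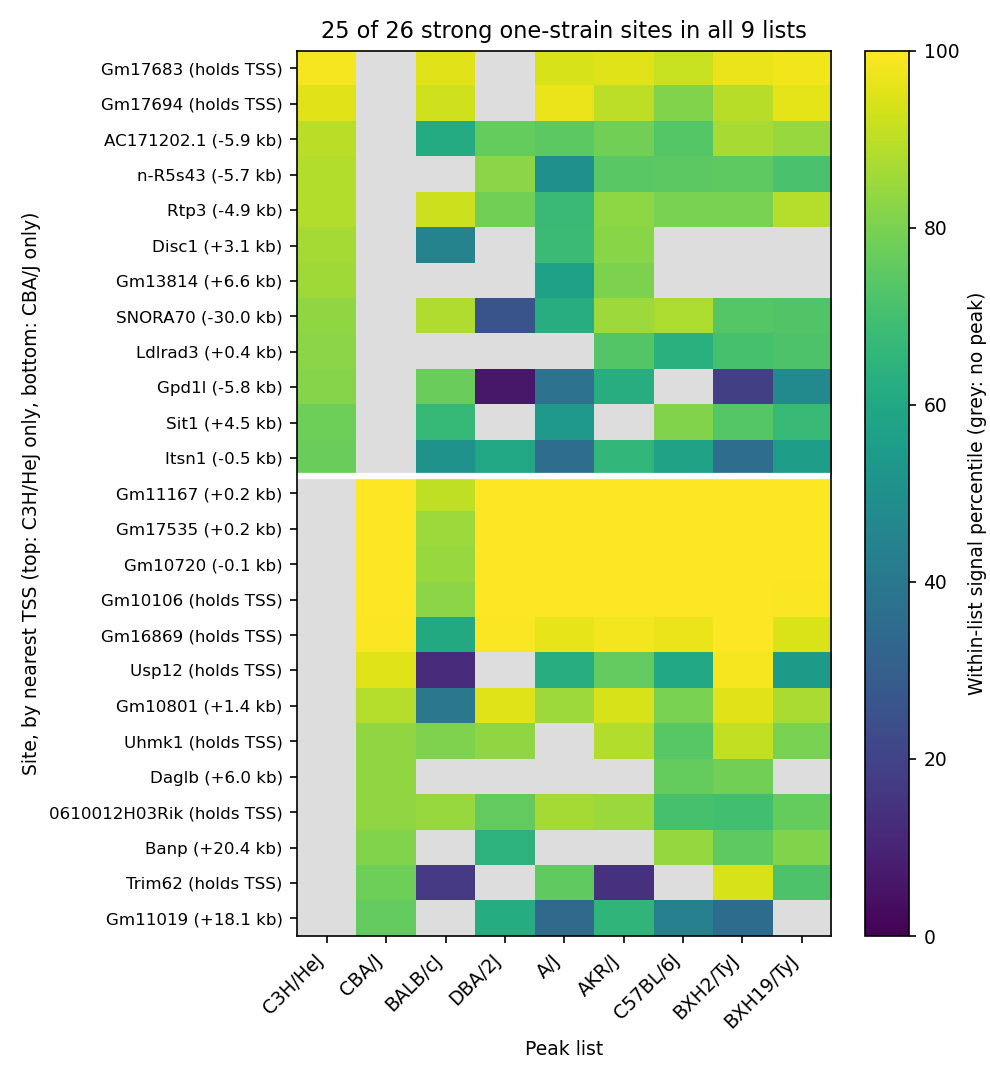
Within-list signal percentile (colour, 0 to 100) of 25 of the 26 strong one-strain sites in the 9 peak lists, C3H/HeJ-only sites above the white line and CBA/J-only sites below it, named by nearest TSS and distance to it. Grey marks a list without a peak, and 20 of the 25 sites plotted were called in at least 5 of the 7 lists besides C3H/HeJ and CBA/J.

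Among the 25187 shared sites the percentiles were close. The median difference, C3H/HeJ minus CBA/J, was -0.11 points (SD 14.5), and 61.4% of the sites differed by less than 10 points. C3H/HeJ was higher by at least 25 points at 1092 sites (4.34%) and CBA/J at 1336 (5.3%), and by at least 50 points at 44 and 61. The balance rests on the percentile scale, since a log2 signal difference of 1 or more, with the median difference removed, was reached by 156 sites in favour of C3H/HeJ and 691 in favour of CBA/J. Sites with a TSS within 1 kb were 25 points apart less often (2.97% and 3.77%, n = 11531) than sites farther away (5.49% and 6.598%, n = 13656). Shared sites away from a TSS that were higher in C3H/HeJ had a G and C content of 54.1% ± 4.07 (SD over sites), and those higher in CBA/J 49.6% ± 3.87.

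Of the 8 largest differences in favour of C3H/HeJ, 3 lay at promoters that were called in all 9 lists. Acad8, an enzyme of valine breakdown, stood at 84.2 in C3H/HeJ and 0.384 in CBA/J, at 66.8 to 88.5 in the other 7 lists. Ipo9, a nuclear import receptor, stood at 85.0 and 3.32, and Atp6v0a2, a subunit of the vacuolar proton pump, at 87.8 and 19.6, with 80.2 to 96.1 and 78.7 to 89.4 in the other 7 lists. At these 3 promoters CBA/J thus had a peak low in its own list, at a lower percentile than in every other strain. The peaks had like widths in both strains (831 and 701 bp at Acad8, 785 and 723 bp at Ipo9).

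The site of Lasp1, an actin-binding protein, lay in the gene, 5167 bp past the nearest TSS, and stood at 90.3 in C3H/HeJ and 21.8 in CBA/J. Its other lists were split, at 77.3 to 91.7 in C57BL/6J, DBA/2J and both BXH strains and at 11.2 to 43.6 in A/J, AKR/J and BALB/cJ. A site 17501 bp from the TSS of Fgf21, a hormone that the liver releases on fasting, stood at 70.5 and 3.06 and had no peak in A/J, AKR/J, BALB/cJ or BXH2/TyJ. Phldb1 (72.9 and 8.16), Rrp9, of the U3 small nucleolar ribonucleoprotein (71.6 and 8.10), and Crip3 (67.4 and 4.86) followed.

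In the other direction, 4 of the 8 largest differences were copies of the tandem repeat. Srpk1, a kinase of splicing factors, stood at 8.15 in C3H/HeJ and 95.5 in CBA/J, at 98.3 in BXH2/TyJ, and had no peak in C57BL/6J or DBA/2J. Plod1, a collagen lysyl hydroxylase, stood at 3.64 and 82.4 with the same absences. Fig4, a phosphoinositide phosphatase, stood at 10.99 and 89.2. At Fig4 the other inbred strains were at 86.5 to 93.3, so C3H/HeJ stood apart from them with BXH19/TyJ (29.8). With the repeat left out, Cyth3 (16.0 and 84.0), Rassf8 (19.5 and 86.9), Luc7l3 (12.1 and 78.2) and Fam89b (8.22 and 72.7) followed.

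**Figure D3:**
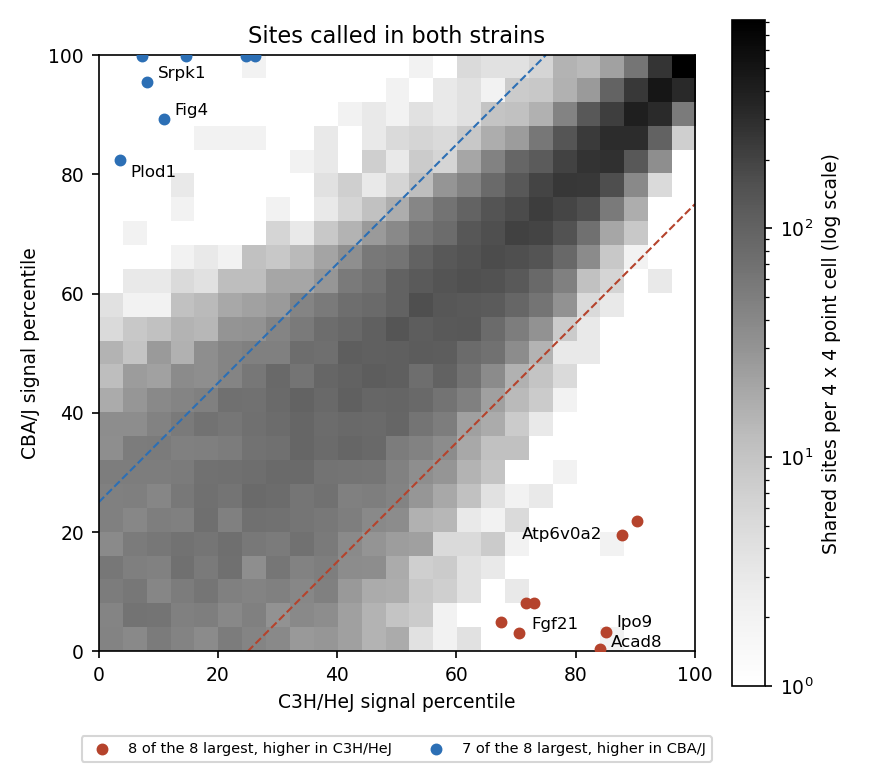
Within-list signal percentile in C3H/HeJ (x axis) and CBA/J (y axis) of the 25187 shared sites, shaded by the number of sites per cell on a log scale. Points are the 8 sites with the largest difference in favour of C3H/HeJ and 7 of the 8 in favour of CBA/J, and the dashed lines mark differences of 25 points, which 1092 and 1336 sites passed.

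None of the genes on the liver gene lists was nearest to a strong one-strain site. Such genes were rare throughout. Of all 21281 autosomal protein-coding genes, 13 were nearest to a strong C3H/HeJ-only site and 12 to a strong CBA/J-only one. Of all 11180 autosomal protein-coding genes with a site within 1 kb of a TSS, 543 had a C3H/HeJ-only site, 310 a CBA/J-only site and 10327 a shared one, with 5.62% of the latter 25 points or more apart (236 higher in C3H/HeJ and 344 in CBA/J) and a median difference of 0.04 points. The lists are described beside these values. The list named for the major histocompatibility complex, which also includes B2m, Ciita and Nlrc5, had 19 of 19 sites shared and none 25 points apart. Of 36 acute phase, complement and coagulation genes with a TSS site, 4 were C3H/HeJ only and 1 CBA/J only, and 5 of the 31 shared sites were 25 points apart, 4 higher in CBA/J, with a median of -5.82 points. Mbl1, a mannose-binding lectin, stood at 16.0 in C3H/HeJ and 65.9 in CBA/J, complement C3 at 52.2 and 79.4, and Hamp, the iron hormone hepcidin, at 59.95 and 29.1, the only one higher in C3H/HeJ.

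Of the 40 liver transcription factor and clock genes, 38 had shared TSS sites and 2 had C3H/HeJ-only ones. The 3 shared sites that were 25 points apart were higher in CBA/J. They were Clock (13.5 and 58.2) and Cry1 (64.9 and 99.4), which belong to opposite arms of the circadian oscillator, and Foxa3 (63.1 and 95.6), a forkhead factor of hepatocytes. Of 26 cytochrome P450 and conjugation genes with a TSS site, 5 were CBA/J only and 1 C3H/HeJ only. These sites were weak, at 1.02 (Cyp2j5) to 32.2 (Cyp2b10, C3H/HeJ only). Nr1i2, the xenobiotic receptor PXR, stood at 14.7 and 42.8.

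In lipid metabolism, 37 triglyceride and fatty acid genes had a shared TSS site, and 2 were 25 points apart. Fgf21 stood at 72.1 in C3H/HeJ and 27.7 in CBA/J at its TSS, the same direction as at the site 17501 bp away, and Agpat2, an enzyme of triglyceride synthesis, at 53.3 and 85.0. Of 28 shared cholesterol, lipoprotein and bile acid genes, Soat2, which esterifies cholesterol, was higher in C3H/HeJ (36.7 and 1.56) and Abcb11, the bile salt export pump, in CBA/J (9.30 and 41.7). Foxo1, a transcription factor that insulin keeps out of the nucleus, was the only one of 27 shared glucose and insulin genes 25 points apart (38.5 and 92.1). Of 25 shared innate immunity genes none was. TSS sites called in a single strain, C3H/HeJ first, numbered 0 and 1 on the triglyceride list and 3 and 1 on the cholesterol list. On the glucose list they numbered 1 and 0, and on the innate immunity list 1 and 3. Down to percentile 50, C3H/HeJ-only sites were nearest to Ephx1 (69.2), Elovl6 (60.4), Cyp3a11 (58.8), Pecam1 (52.0) and Gbp2 (50.4), and a CBA/J-only site to Elovl3 (52.0). Of all 21281 autosomal protein-coding genes, 110 were nearest to a C3H/HeJ-only and 86 to a CBA/J-only site of this level.

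Over all signal levels, one-strain sites of the strains differed in base composition and in the company they kept among the other lists. C3H/HeJ-only sites had a G and C content of 55.6% ± 5.49 (SD over sites), like shared sites (55.6% ± 6.22), and CBA/J-only sites 50.4% ± 5.69. Among sites under 45% G and C, 44.2% were CBA/J only and 4.73% C3H/HeJ only, and between 55 and 60% these were 4.95% and 17.6%. C3H/HeJ-only sites lay within 1 kb of a TSS in 25.7% of cases (24.4 to 27.02%) and CBA/J-only sites in 15.9% (14.8 to 16.9%), against 45.8% of shared sites. From percentile 50 up and without the tandem repeat neither order was seen, with a TSS within 1 kb at 25.6% of 117 C3H/HeJ-only sites (18.02 to 34.5%) and 34.8% of 89 CBA/J-only sites (25.04 to 45.7%), and a G and C content of 54.6% ± 5.36 and 55.7% ± 9.26. The lists as a whole differed little (56.0% in C3H/HeJ and 54.97% in CBA/J, with BALB/cJ lowest at 54.7% and A/J highest at 60.1%). A/J, the list richest in G and C, called 40.5% of the C3H/HeJ-only and 16.0% of the CBA/J-only sites (69.8% of shared sites). BXH2/TyJ, the next richest at 57.3%, called 38.7% and 36.5% (87.1% of shared sites). AKR/J called 22.1% and 42.1% (88.0%), C57BL/6J 27.7% and 49.4% (86.0%) and BXH19/TyJ 34.7% and 41.1% (91.7%). BALB/cJ called both alike at 42.2% and 42.8% (91.9%), and DBA/2J 22.99% and 28.1% (77.03%). Whether base composition in the libraries moved these shares was not tested.

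The CTCF core letters were more frequent in weak CBA/J-only sites. Under percentile 50 they were in 13.3% of 4656 CBA/J-only sites (12.4 to 14.3%), 4.15% of 4246 C3H/HeJ-only sites (3.57 to 4.79%) and 6.89% of 8511 shared sites (6.36 to 7.44%). CTCF is the factor that marks boundaries of chromatin loops. At like G and C the order held in 4 of 5 bins, for example 16.4% of CBA/J-only, 4.08% of C3H/HeJ-only and 7.26% of shared sites between 50 and 55%, and it did not hold at 60% or more (5.26%, 4.18% and 6.41%). Most of the searched letters showed the same order under percentile 50. These were C/EBP (18.9%, 11.05% and 14.7%), FOXA (9.11%, 6.92% and 8.47%) and HNF4A (2.00%, 1.06% and 1.68%). The TATA box (9.66%, 5.58% and 6.44%) and the CCAAT box (33.2%, 28.7% and 29.4%) did so too. GC box letters (10.9%, 23.3% and 20.01%) and NRF1 letters (0.430%, 1.25% and 1.19%) showed the opposite order. ETS letters were most frequent in shared sites. Only the CTCF letters were compared at like G and C. From percentile 50 up the CTCF letters were in 6 of 89 CBA/J-only and 1 of 117 C3H/HeJ-only sites without the tandem repeat, and the Otud3 sequence shows 1 of the 6, at percentile 53.9.

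**Figure D4:**
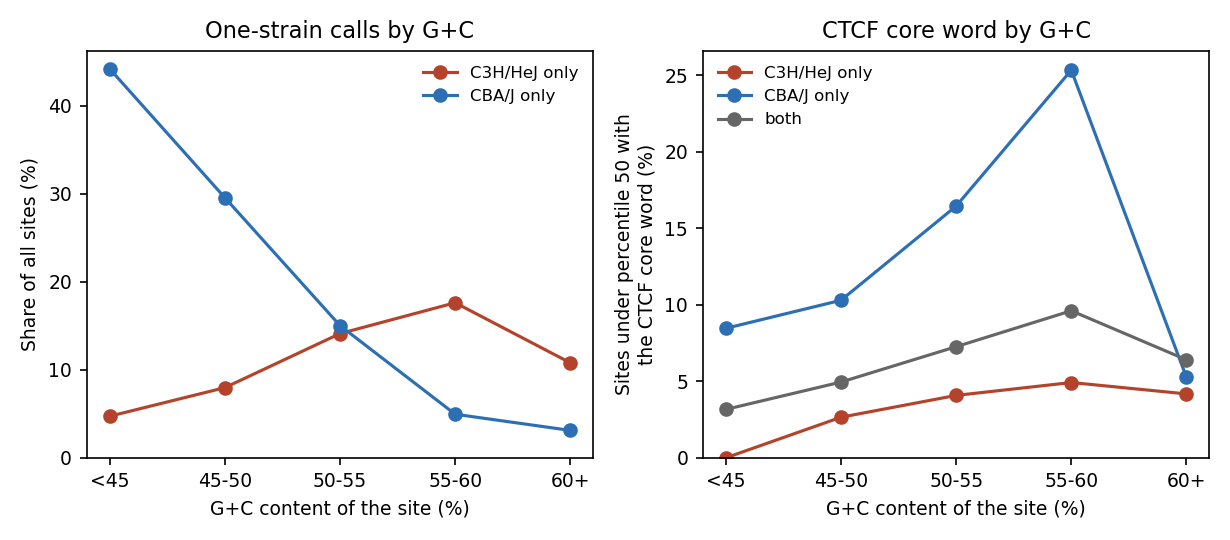
One-strain sites by base composition. The first panel gives the share of all sites called in one strain only and the second the share of sites under percentile 50 that hold the CTCF core letters (y axes, percent), both by G and C content of the site (x axis, percent), and CBA/J-only sites fall from 44.2% to 3.12% of sites with rising G and C.

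The other lists were also used to follow the stronger one-strain sites. At percentile 50 or more and without the tandem repeat, BXH19/TyJ called 81.2% of the 117 C3H/HeJ-only sites (72.9 to 87.8%) and 59.6% of the 89 CBA/J-only sites (48.6 to 69.8%), and A/J 57.3% and 39.3%. At shared sites of this level these lists called 98.4% and 84.1%. The other 5 lists differed less, by under 10 percentage points each. Of sites that C57BL/6J also called, a BXH strain called 76 of 79 C3H/HeJ-only and 50 of 61 CBA/J-only sites. Of sites that C57BL/6J did not call, a BXH strain called 25 of 38 C3H/HeJ-only sites (65.8%, 48.6 to 80.4%) and 18 of 28 CBA/J-only sites (64.3%, 44.1 to 81.4%), although neither parental list of the BXH strains held these 18 peaks. Of shared sites a BXH strain called 99.7% where C57BL/6J did and 89.0% (572 of 643) where it did not. The authors aligned BXH libraries both to the reference and to a C3H/HeJ version of it, and which alignment gave the deposited BXH lists is not given in the sources used here. At these sites the BXH lists held like shares of both kinds.

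BALB/cJ and DBA/2J, which stem from the same founders, divided the one-strain sites in a like way. Of the 117 C3H/HeJ-only sites, 50 were called in BALB/cJ and not DBA/2J, 10 in DBA/2J and not BALB/cJ, 42 in both and 15 in neither. Of the 89 CBA/J-only sites these were 36, 13, 28 and 12. Among the 16659 shared sites at this level, 1259 were called in BALB/cJ and not DBA/2J and 174 the other way. DBA/2J had the shortest list (26769 peaks, 30077 in BALB/cJ), and the part of list length in these counts was not tested.

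The strong one-strain sites hardly clustered apart from the tandem repeat. Of the 26, 5 (19.2%, 6.55 to 39.4%) had another strong one-strain site within 100 kb, and all 5 were copies of the repeat at the start of chromosome 9. They formed the only segment that met the definition of at least 5 strong one-strain sites with gaps of up to 500 kb and at least 30% of the strong sites called in a single strain (5 of 12 sites). Of the 17 strong sites without a copy, 0 had another within 100 kb.

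At percentile 50 or more, the neighbours of a one-strain site were one-strain sites more often than sites were overall. C3H/HeJ-only sites made up 2.86% of the neighbours under 10 kb from another C3H/HeJ-only site, 4.36% from 10 to 100 kb, 2.48% from 100 kb to 1 Mb, 1.68% from 1 to 5 Mb and 0.936% from 5 to 20 Mb, against 0.693% over all sites. Without near-identical copies these were 2.90%, 2.82%, 2.37%, 1.74% and 0.849%, against 0.664%. For CBA/J-only sites without copies the shares were 12.2%, 2.11%, 0.880%, 0.706% and 0.614%, against 0.530%. The first of these is 6 of 49 neighbours, and all 6 come from 3 sites in an intron of Camk2b, a calcium-dependent kinase, 20356 to 25315 bp before its nearest TSS. The 2 C3H/HeJ-only sites under 10 kb apart lay before the first TSS of Scap and in an intron of it. The excess also crossed the strains, with CBA/J-only sites at 1.55% of the neighbours from 100 kb to 1 Mb of a C3H/HeJ-only site without copies.

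At percentile 50 or more, sites of either strain were thus found in the same neighbourhoods from 100 kb to 1 Mb. Under 10 kb, 0 of 70 neighbours of a C3H/HeJ-only site were CBA/J only. Among sites under percentile 50, one-strain sites were 50.9% of the neighbours under 10 kb of a one-strain site, against 51.1% over all. There C3H/HeJ-only sites made up 32.2% of those around a C3H/HeJ-only site (24.4% over all) and CBA/J-only sites 19.9% (26.8%). Around a CBA/J-only site these were 21.7% and 27.9%. Of 285 windows of 5 Mb with at least 20 sites at percentile 50 or more, 181 held no one-strain site without a copy, and 12 windows with at least 4 held 63 of 186. The share of all sites of this level in those 12 windows is not given here, so site density may enter these counts. Shared sites 25 points apart had a smaller excess of neighbours of their own kind than one-strain sites at percentile 50 or more. Those higher in C3H/HeJ made up 7.40% of the neighbours under 10 kb from another such site (4.34% over all shared sites) and 4.63% from 10 to 100 kb, and those higher in CBA/J 7.90% (5.3%) and 6.01%.

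**Figure D5:**
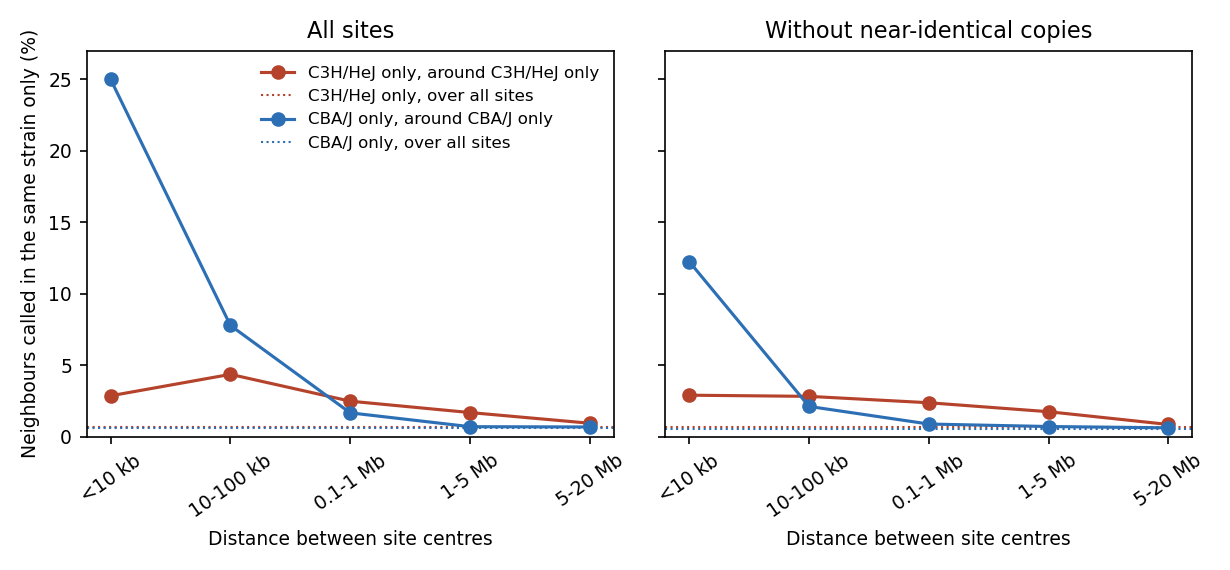
Share of neighbouring sites called in the same strain only (y axis, percent, sites at percentile 50 or more) by distance from a site called in C3H/HeJ only or in CBA/J only (x axis), with all sites and without sites that have a near-identical copy. Dotted lines give the share over all sites, and at 100 kb to 1 Mb without copies C3H/HeJ-only sites stand at 2.37% and CBA/J-only sites at 0.880%.

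By chromosome, one-strain sites at percentile 50 or more were most frequent on chromosome 9, at 3.91% (21 C3H/HeJ only and 17 CBA/J only of 972). Chromosome 1 stood at 2.75%, chromosome 14 at 0.338% and chromosome 17 lowest at 0.232% (2 of 863). Without the tandem repeat chromosome 9 stood at 3.25%. Groups of 5 or more with gaps of up to 1 Mb were formed at 5 places, of which 4 are described, and these were chosen after the data were seen.

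On chromosome 16 from 90897935 to 91839412, 6 of 22 sites were called in a single strain, 4 of them in C3H/HeJ, near Itsn1, Olig2 and at the TSS of Dnajc28. On chromosome 15 from 98865898 to 100454577 these were 6 of 42, near Slc11a2, an iron transporter, and Tmbim6 among others. On chromosome 9 from 107200768 to 108909523 they were 6 of 71, near Pfkfb4 and Cish. The last group was the tandem repeat at the start of chromosome 9 together with a site outside the repeat that has no near-identical copy. With gaps of up to 5 Mb, the group near Pfkfb4 widened to 106175417 to 120647477 and held 12 C3H/HeJ-only and 5 CBA/J-only of 197 sites. Of the 12, 10 were called in BALB/cJ and 7 in DBA/2J, where these lists called 78.6% and 44.4% of all 117 C3H/HeJ-only sites. The 12 include the sites near Rtp3, Gpd1l and Scap, the escort of the SREBP factors, which had 2. Of the 5 CBA/J-only sites there, BALB/cJ called 0 and DBA/2J 1, against 71.9% and 46.1% of the 89 outside the tandem repeat.

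Copies of a single tandem repeat made up much of the strong CBA/J-only set. The repeat, shown above near Gm11167 and Gm10722, has a period of 234 bp, and 76.1% of the bases of the wide Gm10722 site were identical to the base 1 period on. The major satellite of mouse pericentromeric chromatin is a tandem repeat of this unit length, but the sites were not compared with a satellite sequence. The family held 29 sites with a median G and C content of 34.9%. Of these, 17 were called in both strains, 12 in CBA/J only (41.4%) and 0 in C3H/HeJ only, with an exact interval of up to 11.9%. Of all sites under 45% G and C, 44.2% were CBA/J only and 4.73% C3H/HeJ only. Of the 21 sites at the start of chromosome 9, CBA/J called 21 and had 16 at percentile 75 or more, whereas C3H/HeJ called 11 with a median of 38.6 and had 3. The other 7 lists called 18 to 21 with 15 to 18 at percentile 75 or more, so C3H/HeJ stood apart from all of them. Reads were kept only where they fitted a single place, and whether mapping or copy number in the strain sets these values was not tested.

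Sites resembling the L1Md_T retrotransposon showed the same direction at lower signal. L1 elements are the most abundant autonomous retrotransposons of the mouse. Of 26 such sites, 24 were called in CBA/J only, 2 in both and 0 in C3H/HeJ only, at a median percentile of 24.9 in CBA/J. Their median G and C content was 38.1%. Of all sites under 45% G and C, 44.2% were CBA/J only and 4.73% C3H/HeJ only. The part of base composition and low signal in the count was not tested. Of these 26, BALB/cJ called 1 and BXH19/TyJ 8, while DBA/2J, A/J, C57BL/6J, BXH2/TyJ and AKR/J called 22 to 24. At the site nearest to Gm12010, shown above, CBA/J stood at 50.5, DBA/2J at 98.8 and C57BL/6J at 96.2. The largest family of one-strain sites alone, to which the Tmem48 sequence belongs, held 24 sites, 21 called in CBA/J only and 3 in C3H/HeJ only, at a median percentile of 14.0. Shared copies were left out when this family was joined. With shared sites included, the family that takes in these 24 held 398 sites at a median percentile of 58.0. Of the 398, 307 were called in both strains, 69 in CBA/J only and 22 in C3H/HeJ only. Near-identical copies as a whole were near the shares over all sites. Of 877 such sites, 93 were C3H/HeJ only (10.6%), 137 CBA/J only (15.6%) and 647 shared (73.8%). Over all sites these shares were 12.7%, 13.9% and 73.4%.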

How the data were processed

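FAIRE-seq libraries of 2 male mice per strain were aligned by the authors with bowtie to mm9 carrying each inbred strain's SNPs, and those of the BXH strains to mm9 and to its C3H/HeJ version. Reads with a single location were kept, improper pairs and PCR duplicates were removed, peaks were called with F-seq (400 bp feature length), and replicates were combined with IDR. Neither tool versions nor an IDR threshold was given in the sources used here. The authors deposited 1 peak list per strain with positions and a signal value whose scale between strains is not stated. They also deposited lists of the most variable and most common sites.

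Peaks of C3H/HeJ and CBA/J that overlapped or touched were merged on autosomes. Signal was ranked within the whole list and given as a percentile. A site counted as called in another list if at least 1 bp lay under one of its peaks. Sites were assigned to the nearest TSS of GENCODE M1 on NCBIM37, the assembly of mm9. Of 380 listed genes, 377 were found, 4 by an older symbol. Strong sites stood at percentile 75 or more. Near-identical sites had a blastn alignment of at least 90% identity over 150 bp (expect value 1e-10) and were joined into families. L1Md_T-like sites aligned in this way over at least 50% of their length to the L1Md_T locus that the study drew, with 3 kb on each side. Neighbours were counted between site centres.

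Named were the strong one-strain sites, the 8 shared sites with the largest difference in each direction, listed genes, segments and hepatocyte markers. The Rtp3, Usp12, Gm12010, Otud3 and Gm10722 sequences, the one-strain sites and groups at percentile 50 or more, Camk2b and the families were chosen after values were seen. Some sites that these rules name are not reported here. The members and the gene lists were chosen with earlier results of these data known.

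No test was run, since each strain has 1 list. The lists hold no read depth, which limits the weak peaks that can be called, and the read counts stated by the authors were not used here. Merging and TSS distances were tested on simulated data. Tools were blastn 2.17.0, samtools 1.23.1 and Python 3.11.15 with pandas 2.3.3, networkx 3.6.1, numpy 2.4.6, pysam 0.24.0, matplotlib 3.10.9 and scipy 1.17.1.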

Additional observations from a re-analysis of the deposited data

How the results depend on the processing

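Of 76 recomputed values under 12 settings, 52 moved by less than 1.5 times or less than their interval and 24 moved by more. One-strain sites with a peak of the other strain within 500 bp left out gave 0 segments. With the 20000 strongest peaks of each list, 2570 sites were C3H/HeJ only, 2687 CBA/J only, 22 strong sites were CBA/J only, and 708 and 883 shared sites were 25 points higher in C3H/HeJ and in CBA/J. At percentile 90 or more, 3 strong sites were C3H/HeJ only and 6 CBA/J only, near 9 genes, with 55.6% within 100 kb of another and 100% of the C3H/HeJ-only sites called in a BXH strain (84.6% at 75). At percentile 50 or more these were 117 and 98 sites near 200 genes. A log2 signal difference of 1 or more in place of percentiles gave 156 shared sites higher in C3H/HeJ and 691 in CBA/J, with the median difference over the shared sites removed. Without near-identical copies, 6 strong sites were CBA/J only, 0% had another within 100 kb, 0 segments were found, and 17 genes had a strong site. An alternative chosen after seeing the data, percentile 50 or more without copies, gave 109 and 87 sites near 184 genes and 0 segments. Sex chromosomes, single-peak sites, other joining gaps and the nearest protein-coding TSS moved no value by more than that.

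No paired analysis was possible because each list combines both mice of a strain and the results come from no test. For the same reason leaving out a replicate could not be run. Percentiles are ranks within a list and do not show which strain changed. A site without a peak can be accessible below the caller's threshold, and this applies most to the weak sites that make up nearly all one-strain sites.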

Other observations

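Some one-strain sites were also followed one by one in the other lists. The CBA/J-only site 5245 bp upstream of Mapt, which encodes the tau protein, stood at percentile 71.6 and was called in none of the 7 other lists. At percentile 50 or more, 4 CBA/J-only and 2 C3H/HeJ-only sites were called in no other list. None of the one-strain sites at this level overlapped the deposited list of the most common sites. The most variable ones were overlapped by 41 of the 117 C3H/HeJ-only and 43 of the 98 CBA/J-only sites. Both deposited lists were made from the same libraries, so these overlaps are no separate support, and the shares over all sites are not given here. The 3 CBA/J-only sites in the intron of Camk2b, at 65.4, 57.8 and 59.2, were called in C57BL/6J at 61.2, 53.8 and 46.2, and in neither BALB/cJ nor a BXH strain. The TSS site of Dnajc28 stood at 72.8 in C3H/HeJ and at 69.1 to 85.0 in all 7 other lists, with no peak in CBA/J. These sites were picked after their values were seen.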
